A study of Mus musculus with 20 samples.

Results

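The suppressor of cytokine signalling family comprises Socs1 to Socs7 and Cish, and its 8 genes were read from a table of 22068 genes counted in mouse CD4 T cells. They were chosen by name, and all 8 were among the 13309 genes left by a filter on low counts. Each protein carries an SH2 domain that binds phosphorylated tyrosines and a SOCS box that recruits a ubiquitin ligase. Several of the genes are switched on by the STAT factors that cytokine receptors activate, and their products then restrain the receptor or its JAK kinases, a classical negative feedback. In naive CD4 T cells the main cytokine input is interleukin 7, and in regulatory T cells (Treg) it is interleukin 2, both of which signal through JAK1, JAK3 and STAT5.

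RNA was sequenced from T cells sorted from spleen and lymph nodes of C57BL/6 mice 8 to 12 weeks old that carry GFP as a reporter of Foxp3, the transcription factor of Treg. Treg were the GFP-positive CD4 cells, with no gate on CD5 or CD44 named, and were lysed directly. Naive cells were GFP-negative with low CD44, and the 15% highest and 15% lowest in surface CD5, an inhibitor of T cell receptor signalling whose level tracks contact with self-peptide, are called CD5hi and CD5lo. Rested CD5hi and rested CD5lo cells were cultured for 22 hours with 10 ng/mL interleukin 7 to remove that contact, and fresh CD5hi and fresh CD5lo cells were lysed directly. All sorts also excluded cells with CD69 or with surface markers of B, NK, dendritic and myeloid cells. Each of the 5 groups has 4 libraries described by the submitters as biological replicates. Rested cells therefore differ from fresh cells in the culture, its duration and the added interleukin 7 together, and these cannot be told apart.

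Total counts ran between 38211406 and 64477566 per library. Levels are CPM, counts relative to a library total scaled by the trimmed mean of M values (TMM), and a gene is called at an adjusted p under 0.05. Foxp3 averaged 722 ± 38 CPM in Treg and 22.4 to 28.6 CPM in the naive groups (n = 4 each). Summed B cell markers (8 genes) gave 32.4 to 35.1 CPM in Treg, 5.93 to 12.5 in rested and 4.27 to 6.15 in fresh libraries, and 11 myeloid markers gave 10.6 to 13.9, 5.73 to 11.4 and 15.9 to 22.3 CPM in the same order. Summed CD8 and NK markers (8 genes) gave 31.0 to 37.9 CPM in Treg, 20.5 to 24.5 in rested CD5hi, 47.2 to 54.3 in rested CD5lo, 36.3 to 38.9 in fresh CD5hi and 85.2 to 93.4 in fresh CD5lo libraries. Ncr1 was at 0 in every rested and fresh CD5hi library, as was Gzma in rested CD5hi. All 8 fresh libraries had Y-linked reads, but of the Treg, rested CD5hi and rested CD5lo libraries only 1 of 4 each (replicate 3) had them, so the sex of the cells differed along with these comparisons. The part of these differences in the results was not tested, except that values from the libraries with Y-linked reads alone are given. Each of those sets 1 Treg or rested library against 4 fresh ones, so the lone library is assumed to vary like the other groups and the value has no replicate check. In bulk RNA, a change in the share of cells that express a gene and a change of its RNA per cell cannot be told apart.

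The sequence just upstream of a gene's start shows where STAT factors could meet these genes. RefSeq promoter windows of the GRCm38.p6 build were at hand for 4 of the 8 genes (Cish, Socs1, Socs3 and Socs4), and were searched on both strands for TTCNNNGAA, the palindrome of STAT dimers, for its form with a longer spacer (TTC and GAA with any 4 bases between them), and for an interferon response motif (GAAA and GAAA with any 2 bases between them). Of the 300-base windows of the 3 genes with a match, the first 270 bases are printed for Cish and the first 250 for Socs1 and Socs3, 5′ to 3′ on the gene's own strand and with matches in capitals. Cish is at chr9:107296409-107296678 on the plus strand, Socs1 at chr16:10785537-10785786 on the minus strand and Socs3 at chr11:117969367-117969616 on the minus strand.
Cish: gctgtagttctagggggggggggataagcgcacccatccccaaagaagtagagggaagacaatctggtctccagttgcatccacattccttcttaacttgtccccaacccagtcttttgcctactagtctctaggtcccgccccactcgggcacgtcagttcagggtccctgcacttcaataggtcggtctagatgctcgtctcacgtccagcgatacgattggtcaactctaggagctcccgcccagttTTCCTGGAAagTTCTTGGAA
Socs1: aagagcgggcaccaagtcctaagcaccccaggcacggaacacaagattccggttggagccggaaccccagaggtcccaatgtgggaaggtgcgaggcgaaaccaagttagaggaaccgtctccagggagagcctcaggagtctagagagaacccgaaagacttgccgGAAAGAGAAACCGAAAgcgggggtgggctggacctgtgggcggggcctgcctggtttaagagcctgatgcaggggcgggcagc
Socs3: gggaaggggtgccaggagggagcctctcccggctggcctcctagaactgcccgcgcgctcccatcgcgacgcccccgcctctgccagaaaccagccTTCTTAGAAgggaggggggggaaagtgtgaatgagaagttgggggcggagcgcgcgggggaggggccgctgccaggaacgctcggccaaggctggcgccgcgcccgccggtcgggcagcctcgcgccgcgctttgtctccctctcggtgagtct
The Cish stretch holds 2 matches of TTCNNNGAA, separated by a pair of bases, and both lie at its 3′ end, right after the annotated start. Socs3 holds 1 such match, 154 bases before the start. Socs1 holds 2 matches of the interferon response motif that overlap each other, within the 83 bases before the start. The Socs4 window held no match of the 3 motifs. Of 32851 windows of 300 bases, 8.30% held TTCNNNGAA and 0.457% held it at least 2 times, 6.95% held the form with the longer spacer, and 3.44% held the interferon response motif, with 0.225% holding it at least 2 times. These matches describe letters only, and no binding was measured.

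Cish, which encodes the inhibitor CIS that acts on STAT5-activating receptors, was highest in Treg and higher in rested than in fresh cells. It had 203.6, 203.5, 194.0 and 241.2 CPM in Treg libraries, against 12.6, 13.3, 18.5 and 15.1 in fresh CD5hi and 8.21, 11.2, 12.5 and 14.2 in fresh CD5lo libraries. All Treg libraries were above all fresh ones, by a log2 fold change of 3.82 ± 0.14 against fresh CD5hi (SE, edgeR, Benjamini-Hochberg adjusted p = 9.2e-16) and 4.19 ± 0.14 against fresh CD5lo (adjusted p = 1.7e-16). Rested libraries lay between these, without overlap on either side. They had 58.7, 55.9, 54.4 and 50.8 CPM in rested CD5hi and 35.6, 29.8, 32.5 and 32.0 CPM in rested CD5lo cells, and the rise over the fresh cells of the same CD5 gate was 1.88 ± 0.13 in CD5hi cells (adjusted p = 9.8e-11) and 1.50 ± 0.13 in CD5lo cells (adjusted p = 4.0e-09). With the rested and Treg libraries that had Y-linked reads alone, the same 4 changes were 3.72, 4.09, 1.88 and 1.52. Treg exceeded rested CD5hi cells by 1.94 ± 0.13 and rested CD5lo cells by 2.70 ± 0.13.

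Cish also followed the CD5 gate. Within rested cells every CD5hi library exceeded every CD5lo library, by 0.76 ± 0.12 on the log2 scale (edgeR adjusted p = 2.4e-04). Within fresh cells the libraries overlapped, the difference was 0.37 ± 0.13 (95% interval 0.10 to 0.64), and it did not pass at an adjusted p of 0.072. The CD5hi library was the higher in 4 of 4 same-numbered fresh pairs, by 0.09 to 0.61 on the log2 scale, and in 4 of 4 rested pairs, by 0.67 to 0.91. Same-numbered CD5hi and CD5lo libraries of a state varied together, and with the replicate number as a block the fresh difference of 0.37 passed (adjusted p = 0.0022). It also passed without fresh CD5hi replicate 1 (adjusted p = 0.040) or fresh CD5lo replicate 4 (0.019) and with DESeq2 (0.036). The Cish difference in fresh cells was 0.25 without fresh CD5hi replicate 3 (adjusted p = 0.29) and 0.24 without fresh CD5lo replicate 1 (0.25), and it did not pass in a fit of the fresh groups alone (0.12).

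**Figure D1:**
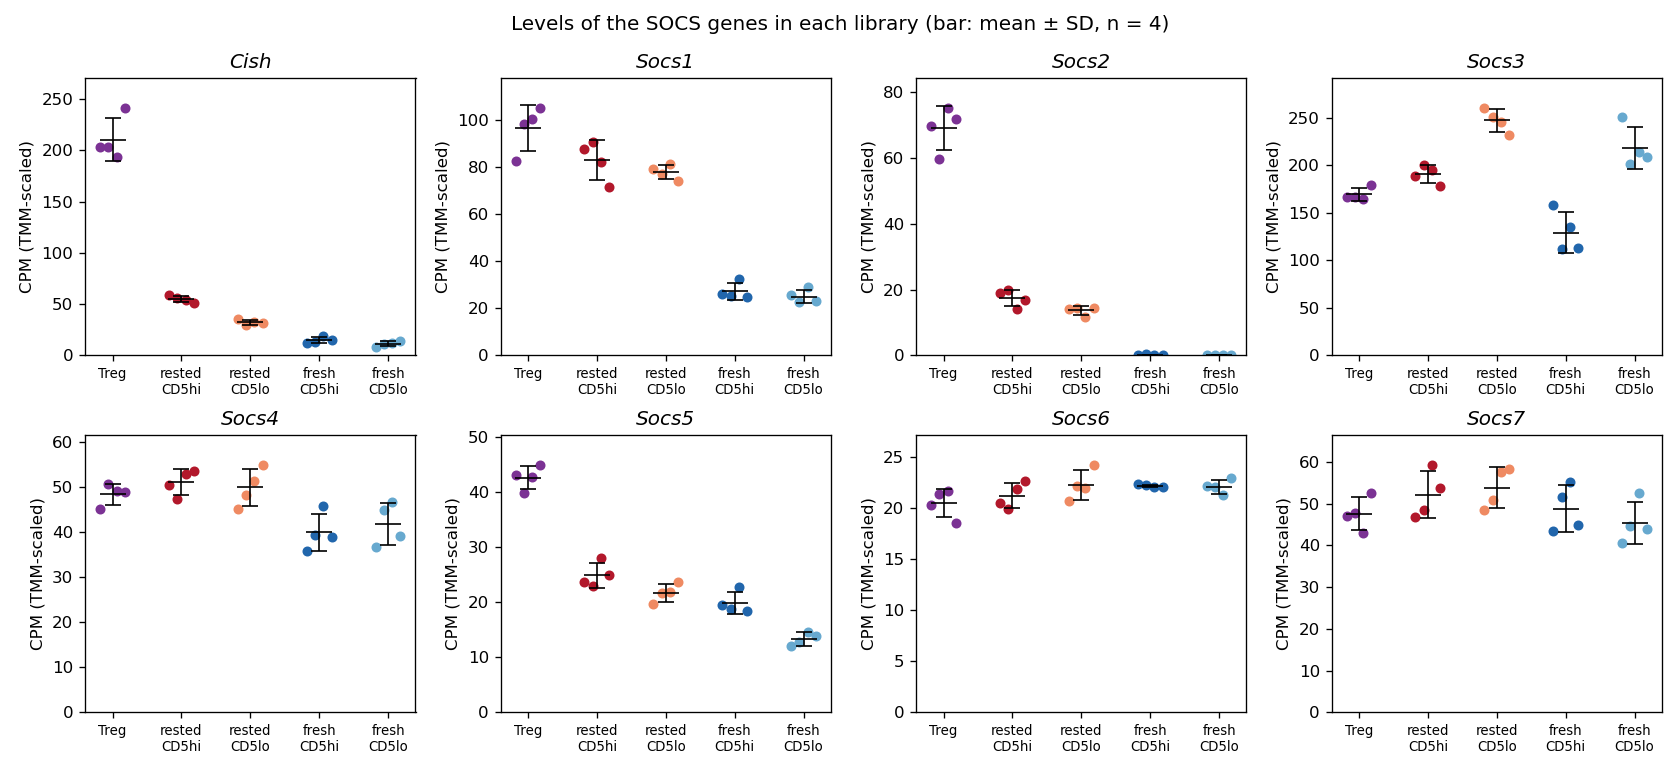
CPM of the 8 genes in each library (points) with group means ± SD (horizontal lines and bars, n = 4), on a linear axis that starts at 0 in each panel. Cish and Socs2 were highest in all 4 Treg libraries, Socs1 stood apart between rested or Treg and fresh libraries, Socs3 was lower in CD5hi than in CD5lo cells, and Socs6 stayed between 18.6 and 24.2 CPM throughout.

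Socs2, whose product is best known as an inhibitor of growth hormone receptor signalling and which is itself a STAT5-induced gene, was close to unmeasured in fresh naive cells. It had 69.8, 59.5, 75.1 and 71.7 CPM in Treg, 18.9, 19.8, 14.2 and 16.9 in rested CD5hi and 14.2, 14.6, 11.8 and 14.3 in rested CD5lo libraries. Fresh CD5hi libraries had 0.0863, 0.315, 0.142 and 0.0666 CPM and fresh CD5lo libraries 0.177, 0.255, 0.156 and 0.175, which are 4 to 15 counts per library. Exact Poisson 95% limits of these counts ran between 1.09 and 24.7, and they cover counting error only. Treg, both rested groups together, and both fresh groups together formed 3 tiers with no overlap. Socs2 passed the filter on low counts through its Treg and rested libraries, so that it differs from fresh cells follows in part from its being tested at all.

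On resting, Socs2 rose by 6.88 ± 0.21 on the log2 scale in CD5hi cells (edgeR adjusted p = 1.8e-16) and by 6.14 ± 0.20 in CD5lo cells (adjusted p = 5.1e-16). These were the 10th and the 12th largest fitted rises of 13309 genes. Treg were higher by 8.87 ± 0.21 than fresh CD5hi cells (adjusted p = 6.0e-19) and by 8.47 ± 0.20 than fresh CD5lo cells (adjusted p = 3.7e-19), ranks 33 and 55. Because the fresh counts are so low, the sizes of these folds are less certain than their SE. The libraries with Y-linked reads alone gave 6.60, 5.93, 9.01 and 8.61 for the same 4 changes. The fresh CD5hi mean was 0.221% of the Treg mean and the fresh CD5lo mean 0.277%, whereas Foxp3 in the same groups stood at 3.33% and 3.09% of its Treg mean. Socs2 RNA in fresh naive cells was thus a smaller fraction of its Treg level than Foxp3 RNA was. Between rested CD5hi and CD5lo cells Socs2 differed by 0.35 ± 0.12 (95% interval 0.09 to 0.60, adjusted p = 0.098), with overlapping libraries but the CD5hi library higher in 4 of 4 pairs. With the replicate number as a block that difference passed at 0.34 (adjusted p = 0.0062), as it did with DESeq2 (0.026) and without rested CD5hi replicate 3 (0.43, adjusted p = 0.017).

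Socs1, which blocks JAK kinases directly and limits signalling by interferon gamma and by the cytokines that share the common gamma chain, was high in Treg and in rested cells of both CD5 gates and low in fresh cells. It had 82.4, 98.3, 100.2 and 104.9 CPM in Treg, 87.5, 90.6, 82.1 and 71.5 in rested CD5hi and 79.0, 77.1, 81.1 and 73.8 in rested CD5lo libraries. Fresh CD5hi libraries had 26.2, 25.1, 32.4 and 24.9 CPM and fresh CD5lo libraries 25.6, 22.6, 28.9 and 22.9. No Treg or rested library came near the fresh range. The rise on resting was 1.61 ± 0.10 in CD5hi cells (edgeR adjusted p = 1.4e-11) and 1.64 ± 0.10 in CD5lo cells (adjusted p = 1.1e-11). Treg exceeded fresh CD5hi cells by 1.83 ± 0.10 (adjusted p = 7.1e-13) and fresh CD5lo cells by 1.95 ± 0.10 (adjusted p = 2.0e-13). The libraries with Y-linked reads alone gave 1.61, 1.72, 1.90 and 2.02 for these 4 changes. Treg libraries overlapped those of rested CD5hi cells and differed from them by 0.22 ± 0.09 (adjusted p = 0.048), and they exceeded all rested CD5lo libraries, by 0.31 ± 0.09 (adjusted p = 0.0063).

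For Socs1 the CD5 gates did not differ past the threshold in either state. The CD5hi-to-CD5lo difference was 0.09 ± 0.09 in rested cells (95% interval -0.10 to 0.29, edgeR adjusted p = 0.70) and 0.12 ± 0.10 in fresh cells (95% interval -0.08 to 0.32, adjusted p = 0.56). The CD5hi library was the higher in 3 of 4 rested pairs, with log2 ratios of -0.05 to 0.23, and in 4 of 4 fresh pairs, with 0.03 to 0.16. With the replicate number as a block, Socs1 still did not pass when rested (0.09, adjusted p = 0.21) or fresh (0.12, adjusted p = 0.0999). Whether the difference of Cish exceeded that of Socs1 was not tested.

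Socs3, which binds the shared receptor chain gp130 and restrains STAT3 signals of interleukin 6, had the opposite sign and was lower in CD5hi cells. Fresh CD5hi libraries had 157.8, 111.5, 135.2 and 112.9 CPM, against 250.6, 201.3, 214.2 and 208.3 in fresh CD5lo libraries, a change of -0.76 ± 0.09 on the log2 scale (edgeR adjusted p = 1.3e-06). Rested CD5hi libraries had 188.3, 200.7, 195.2 and 178.4 CPM, against 260.3, 251.2, 245.3 and 232.0 in rested CD5lo libraries, a change of -0.37 ± 0.09 (adjusted p = 0.0067). Groups did not overlap in either state, and the CD5hi library was lower in all 8 same-numbered pairs, by 0.66 to 0.88 when fresh and by 0.32 to 0.47 when rested. With rested replicates 1 and 2 alone the rested change was -0.40 (adjusted p = 0.052), and with replicates 3 and 4 alone it was -0.35 (0.15).

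Resting raised Socs3 in CD5hi cells, by 0.56 ± 0.09 (edgeR adjusted p = 1.5e-05). In CD5lo cells the change was 0.18 ± 0.09 (95% interval -0.0009 to 0.36, adjusted p = 0.086), and it passed without fresh CD5lo replicate 1 (0.25, adjusted p = 0.022). Treg libraries had 166.3, 166.5, 165.1 and 179.5 CPM, above all fresh CD5hi and below all fresh CD5lo libraries. Treg therefore exceeded fresh CD5hi cells by 0.39 ± 0.09 (adjusted p = 6.1e-04) and were lower than fresh CD5lo cells, at -0.37 ± 0.09 (adjusted p = 9.0e-04). With the 1 Treg library with Y-linked reads these were 0.37 (adjusted p = 0.067) and -0.39 (0.061).

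**Figure D2:**
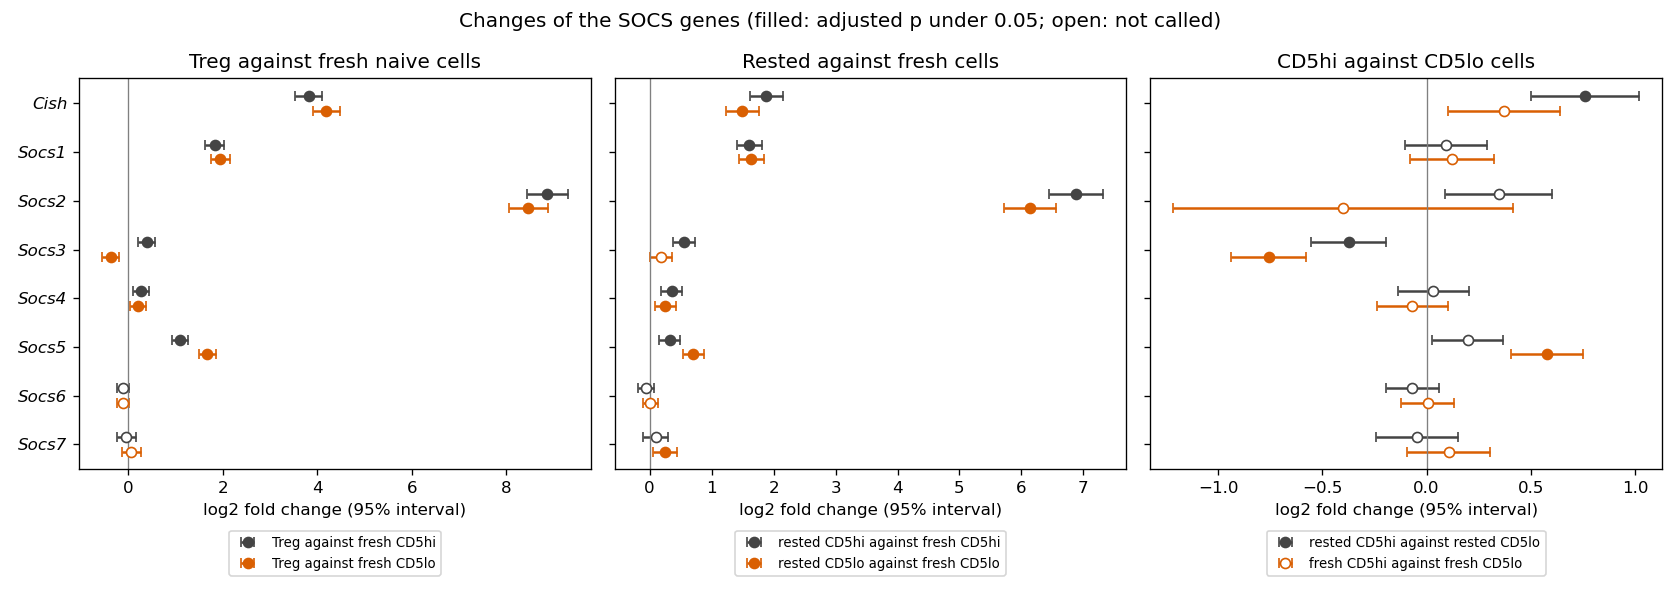
Log2 fold changes of the 8 genes with 95% intervals, in 3 panels for Treg against each fresh group, rested against fresh cells of each CD5 gate, and CD5hi against CD5lo cells when rested and fresh. Filled symbols passed an adjusted p of 0.05. Cish, Socs1, Socs2, Socs4 and Socs5 lay above 0 in both Treg and both resting comparisons, and Socs3 lay below 0 in both CD5 comparisons.

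Socs5, known for limiting interleukin 4 and epidermal growth factor receptor signalling, followed the CD5 gate in fresh cells. Fresh CD5hi libraries had 19.6, 18.8, 22.8 and 18.4 CPM, against 12.0, 12.7, 14.7 and 13.96 in fresh CD5lo libraries, with no overlap and a difference of 0.58 ± 0.08 (edgeR adjusted p = 3.1e-05). Rested CD5hi libraries had 23.7, 22.9, 28.1 and 25.0 CPM, against 19.6, 21.7, 21.9 and 23.7 in rested CD5lo libraries. These overlapped, at 0.20 ± 0.08 (95% interval 0.03 to 0.37, adjusted p = 0.18), and the difference of 0.20 passed with the replicate number as a block (adjusted p = 0.043) and, at 0.25, without TMM scaling (0.048). It was 0.13 without rested CD5hi replicate 3 (adjusted p = 0.36), and 0.17 when replicates 1 and 2 were the only rested ones kept (0.41). The CD5hi library was higher in 4 of 4 pairs in each state.

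Resting raised Socs5 by 0.33 ± 0.08 in CD5hi cells (edgeR adjusted p = 0.0023) and by 0.70 ± 0.08 in CD5lo cells (adjusted p = 4.1e-07). The CD5hi value was 0.22 with rested replicates 1 and 2 alone, just short of the threshold (adjusted p = 0.0504), and 0.51 with the 1 rested CD5hi library with Y-linked reads. Treg libraries had 43.1, 39.7, 42.7 and 44.9 CPM, above every naive library. Treg exceeded fresh CD5hi cells by 1.10 ± 0.08 (adjusted p = 1.9e-10) and fresh CD5lo cells by 1.68 ± 0.08 (adjusted p = 1.5e-13).

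The other 3 genes changed little, and less is known of them in T cells. Socs4, related to Socs5 in sequence, averaged 48.5 ± 2.30 CPM in Treg, 51.1 ± 2.89 in rested CD5hi, 50.0 ± 4.14 in rested CD5lo, 40.0 ± 4.19 in fresh CD5hi and 41.9 ± 4.66 in fresh CD5lo cells (SD, n = 4 each). It rose on resting by 0.35 ± 0.08 in CD5hi cells (edgeR adjusted p = 0.0011), where the groups did not overlap. The smaller rise in CD5lo cells, 0.25 ± 0.08 (adjusted p = 0.012), and those in Treg, 0.28 ± 0.08 against fresh CD5hi (0.0066) and 0.21 ± 0.08 against fresh CD5lo cells (0.033), came with overlapping libraries. With the rested and Treg libraries that had Y-linked reads alone, the last 3 did not pass (0.31, 0.31 and 0.25, adjusted p = 0.061, 0.065 and 0.13). The rise in CD5lo cells also missed the threshold without rested CD5lo replicate 4 (0.059) or fresh CD5lo replicate 1 (0.063), without TMM scaling (0.16, adjusted p = 0.077) and, at 0.15, when replicates 1 and 2 were the only rested ones kept (0.19). So did the Treg rise over fresh CD5lo cells without Treg replicate 2 (0.067) or fresh CD5lo replicate 1 (0.10) or 4 (0.075).

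Socs7 averaged between 45.3 and 53.8 CPM over the 5 groups, and 1 of the 10 pairs of groups passed, rested against fresh CD5lo cells at 0.25 ± 0.10 (edgeR adjusted p = 0.033). That call was lost without rested CD5lo replicate 3 (adjusted p = 0.10) or 4 (0.11), without fresh CD5lo replicate 1 (0.12), 2 (0.075) or 4 (0.084), and without TMM scaling (0.13). Socs6, which binds the receptor KIT and the insulin receptor, averaged between 20.5 and 22.2 CPM, and none of the 10 pairs of groups passed in edgeR, the lowest adjusted p being 0.088. Its highest group mean was 1.09 times its lowest, against 1.19 times for Socs7, 1.28 for Socs4, 1.91 for Socs3, 3.20 for Socs5, 3.86 for Socs1, 18.3 for Cish and 453 for Socs2, whose lowest mean rests on very few counts.

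The order of the group means differed between the genes. Cish and Socs5 ran in the order Treg, rested CD5hi, rested CD5lo, fresh CD5hi and fresh CD5lo. In the fit without pairs, all neighbours of Cish but the last passed. For Socs5 rested CD5hi against rested CD5lo did not pass there, nor did rested CD5lo against fresh CD5hi (0.13 ± 0.08, edgeR adjusted p = 0.20). With the replicate number as a block, fresh Cish and rested Socs5 did pass between the CD5 gates, as given above. Socs1 ran in the same order, and its CD5 gates did not pass in either fit. Socs2 kept Treg, rested CD5hi and rested CD5lo in that order, with the fresh groups last and not distinguishable (-0.40 ± 0.39, adjusted p = 0.66). Socs3 ran rested CD5lo, fresh CD5lo, rested CD5hi, Treg, fresh CD5hi. Of its neighbours only the last pair differed, since rested CD5hi against fresh CD5lo gave -0.20 ± 0.09 (adjusted p = 0.058) and Treg against rested CD5hi gave -0.17 ± 0.09 (0.085).

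Per kilobase of exon in the GENCODE M21 models, Socs3 had the highest mean level of the 8 genes in each group, at 66.4 CPM per kilobase in Treg, 74.7 in rested CD5hi, 96.9 in rested CD5lo, 50.7 in fresh CD5hi and 85.7 in fresh CD5lo cells. Cish was second in Treg, at 57.7, and Socs1 second in the other groups, at 28.5, 26.7, 9.34 and 8.59 in the same order. Socs4 to Socs7 had 2.87 to 9.17 CPM per kilobase over all groups. Which gene models the authors counted on is not stated, so these lengths only approximate theirs.

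Counted over the 8 genes, more of them were called on resting and in Treg than between the CD5 gates. Against fresh CD5hi cells, 6 were higher in Treg (54.2% of all genes were called, 27.5% higher), and against fresh CD5lo cells 5 were higher and 1 lower (58.5% called, 29.2% higher and 29.4% lower). On resting, 6 rose in CD5hi cells (52.4% called, 26.2% higher) and 6 in CD5lo cells (54.3% called, 26.9% higher). The median log2 change of the 8 genes was 0.74 and 0.94 in the Treg comparisons and 0.46 and 0.48 on resting, while the median over all tested genes lay between -0.03 and 0.0003. More than 1 in 2 genes was called in each of these comparisons, so being called sets a gene little apart. The Treg and resting comparisons share the fresh libraries, and agreement between them is not independent evidence.

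The CD5 comparisons called 2 of the 8 genes each. In fresh cells Socs5 was higher and Socs3 lower in CD5hi (11.5% of all genes called, 6.86% higher and 4.59% lower), and in rested cells Cish was higher and Socs3 lower (8.2% called, 4.74% higher and 3.46% lower). With the replicate number as a block, rested cells had 3 higher and 1 lower and fresh cells 2 higher and 1 lower. That block also raised the calls over all genes, from 1092 to 2372 when rested and from 1524 to 2806 when fresh. Whether the CD5 difference itself changed on resting was asked by the interaction, the rested difference minus the fresh one. None of the 8 genes passed it in edgeR (0.451% of all genes called) or in DESeq2, and 3 of them had an unadjusted p under 0.05. These were Cish at 0.39 ± 0.18 (adjusted p = 0.75), Socs3 at 0.38 ± 0.12 (0.31) and Socs5 at -0.38 ± 0.12 (0.29). With the replicate number as a block, Socs3 passed at 0.39 (adjusted p = 0.0013) and Socs5 at -0.38 (adjusted p = 0.035), so both CD5 differences were nearer 0 in rested than in fresh pairs. Cish did not pass there (adjusted p = 0.064). Over all genes the block called 354 in the interaction, against 60 without it. Socs3 also passed without fresh CD5hi replicate 1, at 0.49 (adjusted p = 0.033).

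**Figure D3:**
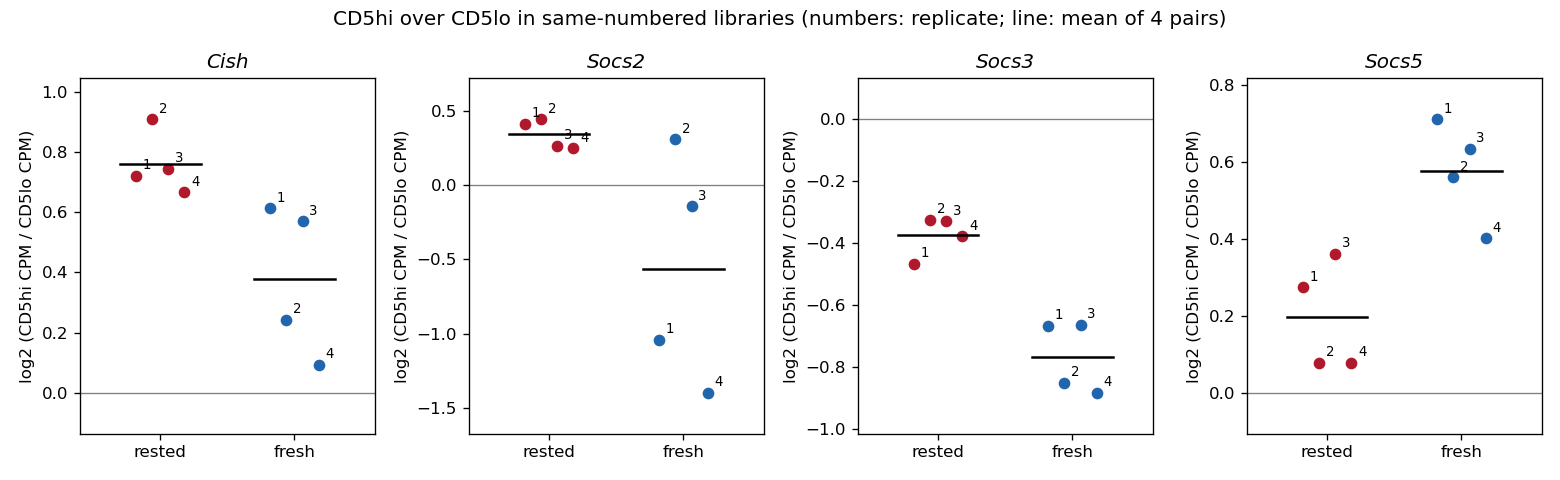
Log2 ratio of CPM in the CD5hi library over the same-numbered CD5lo library, for the 4 rested and the 4 fresh pairs, with their mean (black line) and a grey line at 0. Cish lay above 0 in all 8 pairs and higher when rested, Socs3 lay below 0 in all 8 and Socs5 above 0 in all 8, both nearer 0 when rested, and the fresh ratios of Socs2 rest on 4 to 15 counts per library.

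The receptors and kinases that the family restrains moved as well. Of 24 cytokine receptor chains, 12 were higher and 5 lower in Treg than in fresh CD5hi cells (27.5% of all genes were higher), with the same counts against fresh CD5lo cells (29.2%). On resting 8 rose and 8 fell in CD5hi cells (26.2% of all genes rose), and 10 rose and 9 fell in CD5lo cells (26.9%). About 1 in 2 of all genes was called in each of these comparisons, as given above, and all list counts that follow are to be read against those shares. Il2ra, the inducible alpha chain of the interleukin 2 receptor, had 824 ± 38.8 CPM in Treg, 88.6 ± 8.89 in rested CD5hi, 108 ± 4.62 in rested CD5lo, 1.64 ± 0.308 in fresh CD5hi and 2.93 ± 0.463 in fresh CD5lo cells (SD, n = 4 each). Its tiers were those of Socs2, with fresh cells close to 0. On resting it rose by 5.75 ± 0.11 in CD5hi cells (edgeR adjusted p = 1.4e-19) and 5.20 ± 0.11 in CD5lo cells (2.8e-19). Il2rb, the signalling beta chain on which CIS acts, had 61.1 ± 2.66 CPM in rested CD5hi against 22.7 ± 2.87 in rested CD5lo cells and 33.8 ± 1.6 in fresh CD5hi against 7.39 ± 1.25 in fresh CD5lo cells. It was thus higher in CD5hi cells of both states, by 1.43 ± 0.09 when rested (adjusted p = 2.9e-10) and 2.19 ± 0.09 when fresh (2.6e-13), and its interaction of -0.76 ± 0.13 passed (0.0042). In all, 3 receptor chains were higher and 3 lower in rested CD5hi cells, and 5 and 2 were so when fresh. Of all genes, 8.2% were called when rested and 11.5% when fresh. With the replicate number as a block these counts were 5 and 5, and 7 and 6. Calls over all genes also rose with that block, from 1092 to 2372 when rested and from 1524 to 2806 when fresh.

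The kinases and STAT factors behind these receptors were traced by the genes with the largest changes. Jak3, the kinase of the common gamma chain, was at 334 ± 11.1 CPM in Treg, 73.3 ± 7.83 in rested CD5hi, 63.4 ± 1.89 in rested CD5lo, 289 ± 13.1 in fresh CD5hi and 210 ± 4.64 in fresh CD5lo cells (SD, n = 4 each). Jak3 fell on resting by 1.98 ± 0.06 in CD5hi (edgeR adjusted p = 1.6e-16) and by 1.73 ± 0.06 in CD5lo cells (9.3e-16), in the same libraries in which Cish, Socs1 and Socs2 rose. Stat5a, a factor that carries interleukin 2 and interleukin 7 signals, was at 148 ± 11.03 CPM in Treg. It had 61.6 ± 6.66 CPM in rested CD5hi, 58.5 ± 9.98 in rested CD5lo, 93.1 ± 1.73 in fresh CD5hi and 85.7 ± 1.56 in fresh CD5lo cells. It was higher in Treg by 0.67 ± 0.09 than in fresh CD5hi (1.9e-06) and by 0.79 ± 0.09 than in fresh CD5lo cells (1.5e-07). Its relative Stat5b, given after its values were seen, had 368 ± 16.2 CPM in Treg. Stat5b had 332 ± 7.87 CPM in rested CD5hi, 344 ± 8.35 in rested CD5lo, 309 ± 4.18 in fresh CD5hi and 290 ± 7.24 in fresh CD5lo cells.

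**Figure D4:**
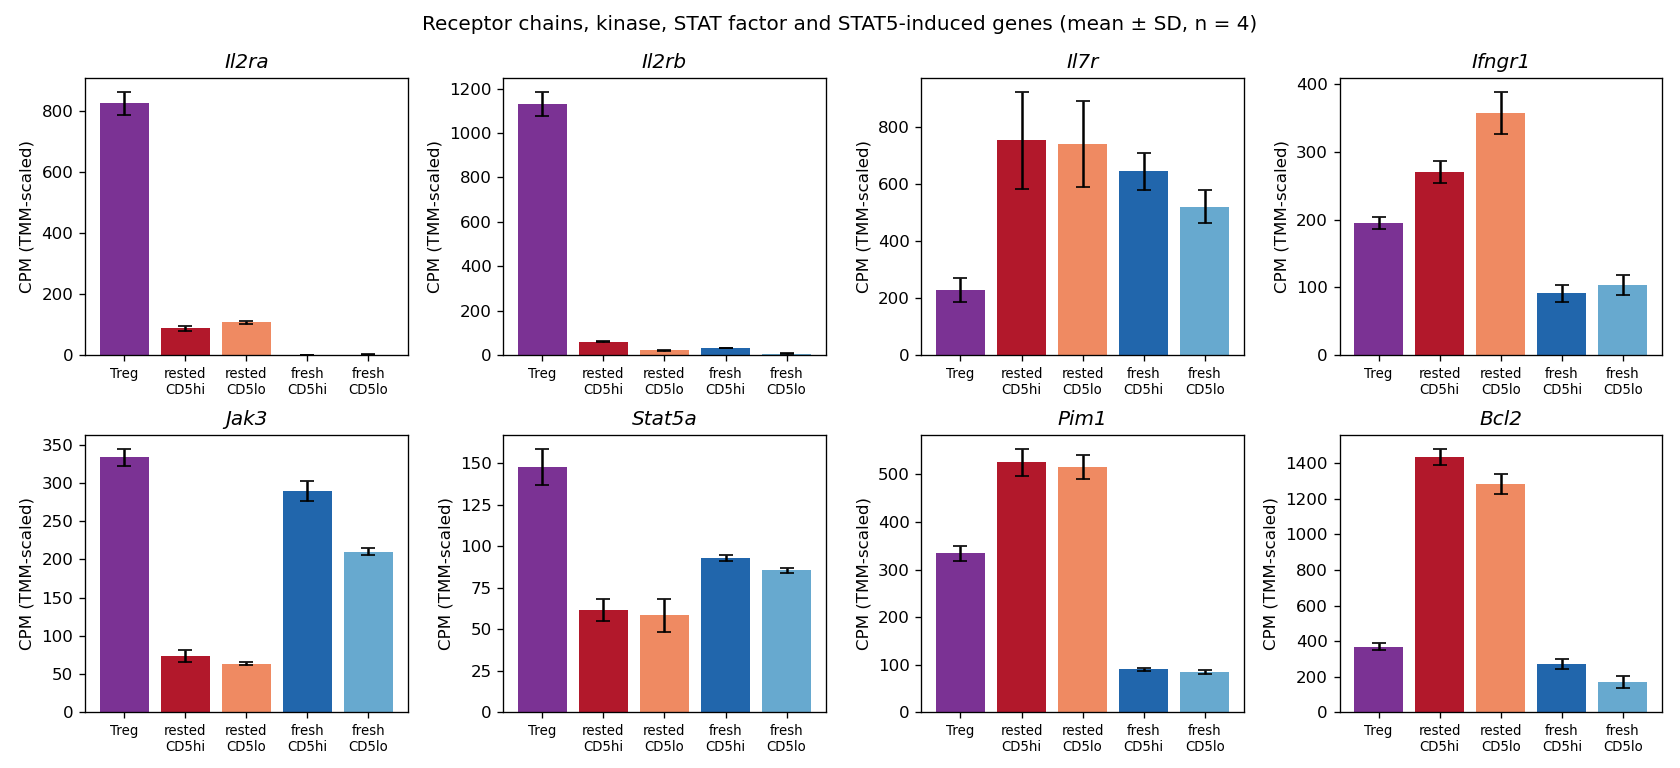
Mean CPM with SD (n = 4) of 8 genes around the family, the receptor chains Il2ra, Il2rb, Il7r and Ifngr1, the signal carriers Jak3 and Stat5a, and the STAT5-induced genes Pim1 and Bcl2. Il2ra was highest in Treg and near 0 in fresh cells, Jak3 and Stat5a were lowest in rested cells, and Pim1 and Bcl2 were highest in rested cells.

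Other genes known to be induced through STAT5, 14 of them besides Cish and Socs2, rose along with these in part. On resting 10 rose and 1 fell in CD5hi cells (26.2% of all genes rose) and 8 rose and none fell in CD5lo cells (26.9%), with list medians of 1.29 and 1.33 on the log2 scale against 0.0003 and -0.01 over all genes. Pim1, a survival kinase, had 526 ± 28.6 CPM in rested CD5hi and 90.5 ± 2.64 in fresh CD5hi cells, a rise of 2.54 ± 0.05 (edgeR adjusted p = 4.3e-19). Bcl2, an inhibitor of cell death, had 1282 ± 56.3 CPM in rested CD5lo and 172 ± 32.1 in fresh CD5lo cells, a rise of 2.90 ± 0.10 (1.4e-15). In Treg 10 of the 14 were higher and 2 lower than in fresh CD5hi (27.5% of all genes were higher), and 11 and 2 against fresh CD5lo cells (29.2%). The 14 include Foxp3, whose reporter defined the sort, so its rise in Treg was fixed by the gate. They also include Gzmb, at 13.7 CPM in Treg and 0.0310 to 0.202 in the naive groups, which passed the low-count filter through Treg. Cdkn1a, at 0.0262 and 0.0796 CPM in the fresh groups, passed it through Treg and rested cells. Across the CD5 gates 4 were higher and 1 lower in the rested state (8.2% of all genes called), and 3 higher and 2 lower in the fresh state (11.5%). Tnfrsf4, the costimulatory receptor OX40, was higher in CD5hi cells by 1.22 ± 0.08 when rested (5.2e-10) and 0.72 ± 0.08 when fresh (1.6e-06), whereas Il2ra was lower in fresh CD5hi cells (-0.84 ± 0.13, adjusted p = 5.9e-05).

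A few interferon-induced genes were named for the size of their change and do not stand for interferon-induced genes as a whole. Ifit3, Ifit1 and Isg15 were lower after resting, while Igtp was higher. Ifit3, an antiviral protein, fell by 3.13 ± 0.17 in CD5hi (edgeR adjusted p = 1.7e-12) and by 2.40 ± 0.16 in CD5lo cells (5.9e-11). Ifit1 fell by 2.62 ± 0.16 in CD5hi (1.1e-11), and the ubiquitin-like modifier Isg15 fell by 2.19 ± 0.10 in CD5lo cells (7.5e-14). Socs1, also known as interferon-induced and with 2 matches of the interferon motif in its window, rose in these same comparisons. Between the CD5 gates the interferon-induced GTPase gene Igtp was lower in CD5hi cells, at -0.72 ± 0.12 when rested (4.9e-04) and -0.64 ± 0.12 when fresh (9.6e-04). Igtp rose on resting, a comparison given for it after its values were seen, with 307 ± 54.1 CPM in rested CD5hi against 192 ± 18.8 in fresh CD5hi cells (0.67 ± 0.12, 1.2e-04) and 504 ± 92.6 in rested CD5lo against 300.4 ± 40.6 in fresh CD5lo cells (0.75 ± 0.12, 3.7e-05; SD, n = 4 each).

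Genes known to be induced through STAT3, 10 in number, included 1 that rose and 4 that fell on resting in CD5hi cells and 1 that rose and 5 that fell in CD5lo cells, near the 52.4% and 54.3% of all genes called. Bcl6, a transcription factor of follicular helper cells, fell by 2.23 ± 0.10 in CD5hi cells (edgeR adjusted p = 1.9e-13), and it fell in CD5lo cells too, with 6.18 ± 0.864 CPM in rested CD5lo and 24.7 ± 1.93 CPM in fresh CD5lo cells. Against fresh CD5lo cells, in which Socs3 was high, Treg had 7 higher and none lower (29.2% of all genes were higher), and against fresh CD5hi cells 5 higher and 2 lower (27.5%). In fresh CD5hi cells 3 were higher and none lower than in fresh CD5lo cells (5 and 1 with the replicate number as a block, 6.86% of all genes higher without it). In rested CD5hi cells none was called in edgeR, 3 had an unadjusted p under 0.05, DESeq2 called 1 and the block called 3. Over all genes the block called 2806 in fresh and 2372 in rested cells, against 1524 and 1092 without it.

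Of 17 other inhibitors of JAK and STAT signalling (PIAS proteins, phosphatases, adaptors and Usp18), 7 were higher and 6 lower in Treg than in fresh CD5hi cells, and 8 and 4 against fresh CD5lo cells (54.2% and 58.5% of all genes called). On resting 5 rose and 7 fell in CD5hi cells and 6 rose and 6 fell in CD5lo cells (52.4% and 54.3% called). The list medians were -0.09 and -0.02, against medians of 0.46 and 0.48 for the 8 SOCS genes. Usp18, an interferon-induced brake on the type I interferon receptor, fell by 1.51 ± 0.11 in CD5hi (edgeR adjusted p = 2.8e-10) and 1.13 ± 0.11 in CD5lo cells (1.9e-08). Between the CD5 gates 1 was higher and 3 lower in the rested state, and 5 higher and 1 lower when fresh, where 8.2% and 11.5% of all genes were called. Without rested CD5hi replicate 2 the rested counts were 1 and 0, and without rested CD5hi replicate 1 or rested CD5lo replicate 1, 2 or 4 they were 1 and 1. With the replicate number as a block the fresh counts were 9 and 1, where 2806 of all genes were called, against 1524 without it.

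The 6 partners that join the SOCS box to the ubiquitin ligase changed little. Cul5, the scaffold of that ligase, fell on resting by 0.30 ± 0.04 in CD5hi (edgeR adjusted p = 9.1e-06) and 0.27 ± 0.04 in CD5lo cells (3.1e-05). Rnf7, its RING subunit, rose by 0.44 ± 0.09 (3.9e-04) and 0.45 ± 0.09 (2.5e-04). In all, 3 partners rose and 1 fell in CD5hi and 2 rose and 1 fell in CD5lo cells on resting (4 and 1 without rested CD5lo replicate 1), where 52.4% and 54.3% of all genes were called. In Treg 1 was higher and 2 lower than in fresh CD5hi cells, and 1 and 3 than in fresh CD5lo cells (54.2% and 58.5% of all genes called), where other scalings or filters left 1 or 2 calls in all. Between the CD5 gates none was called in edgeR or DESeq2 in either state, with 1 (rested) and 0 (fresh) at an unadjusted p under 0.05.

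Genes with the most similar profile were sought for each member by Pearson's r of log2 CPM over the 20 libraries, among 11116 genes with a mean of at least 1 CPM. The libraries fall into 5 groups and share their scaling, so r mostly reflects the group means and is given as a description. Cish was most like Tnfrsf4 (r = 0.988), followed by Plcb3 and Mdfic. Socs2 was most like Slc22a5 (0.991), Il2ra (0.985) and Kcna3. Slc22a5 was also among the 3 genes nearest to Socs1 (0.979), after Ppm1m and Rragd. Socs5 was most like Icos (0.974), a costimulatory receptor, Spry1 and Sccpdh. Socs3 had no gene so close, with Phf15 at 0.880, Tubb2a and Pcsk1, and Socs4 (Qk, 0.931), Socs7 (Zfr, 0.884) and Socs6 (Cox11, 0.837) followed. Within the family r was 0.974 between Socs1 and Socs2, 0.950 between Cish and Socs5 and 0.903 between Cish and Socs2, while Socs3 gave -0.23 to 0.31 with the other 7.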

How the data were processed

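The authors deposited gene counts of 20 libraries (mRNA, 50-base reads from both ends). Of software, the submitters' processing notes list featureCounts 1.4.5 (Subread), TopHat2 2.0.11 and edgeR, with the mm9 build. The annotation is not stated, nor whether counting used strand, so antisense reads may be included. Of counts between 1 and 10, 62.3 to 66.2% were even, so mates were probably counted separately and counting limits are optimistic. Groups follow the titles and gates. The cell type label opens with the CD5lo gate for every sample, and all are labelled as pooled from both sexes, which the Y-linked reads do not show.

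The deposited counts went into edgeR 4.0.16 under R 4.3.3 (quasi-likelihood test, TMM scaling, default expression filter, 1 factor of 5 groups, 15 residual degrees of freedom), with Benjamini-Hochberg adjustment over 13309 genes per comparison. The SE is the log2 fold change over the square root of F. P-values measure the spread between these libraries. CD5hi and CD5lo deviations of the same number and state correlated at 0.34 to 0.78, so those numbers were taken as pairs. The labels do not say what a number marks. Rested CD5hi replicates 1 and 2 correlated at 0.66 and 0.60 with their own number, and at up to 0.46 and 0.53 with another. A batch shared by several rested libraries was not told apart from pairs. Numbers did not pair other groups (-0.20 to 0.14). The script was checked on simulated data. Alternatives were DESeq2 1.42.0, scalings, filters, blocks and left-out libraries. The members, lists and tests were chosen with earlier results of these data known. Of each list, up to 2 called genes per comparison with the largest change and a mean of at least 1 CPM could be named, and some are left out for length. Counts of the lists of JAK and STAT genes and of interferon-induced genes are not reported here.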

Additional observations from a re-analysis of the deposited data

Results flagged for a closer look

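Within a group of 4 libraries, 1 library stood apart from the other 3 by more than Dixon's 95% limit in 3 of the 40 combinations of gene and group, where chance gives about 1 in 20. Socs1 was at 32.4 CPM in fresh CD5hi replicate 3 and at 24.9 to 26.2 CPM in the other 3. Socs2 was at 11.8 CPM in rested CD5lo replicate 3, the only library of its group with Y-linked reads, and at 14.2 to 14.6 CPM in the others. Socs3 was at 179 CPM in Treg replicate 4 and at 165 to 167 CPM in the others. The called changes of Socs1 and Socs2 passed without each of these libraries, as did those of Socs3 in Treg.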

How the results depend on the processing

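Over 472 settings of the 28 called results of single members, 450 kept the direction and the call, 22 lost the call and 0 reversed. Over 527 settings of the 28 uncalled ones, 489 stayed, 15 passed and 23 changed sign. The causes were not tested. The number of members called for rested CD5hi against CD5lo was 2, and it was 4 with a replicate block within states, 1 with rested replicates 1 and 2 alone, and 1 with replicates 3 and 4 alone. For the interaction it was 0, 2 with the block and 0 to 1 when leaving out 1 library. Leaving out 1 library gave 2 to 3 calls in each CD5 comparison, 6 to 6 for rested and Treg against fresh CD5hi, 4 to 6 for rested and 5 to 6 for Treg against fresh CD5lo. The block by number between rested or Treg and fresh cells, where numbers do not pair libraries, changed only Socs3 in CD5lo cells (0.18, adjusted p = 0.0498, edgeR). A fit of the compared groups alone also called it (0.17, adjusted p = 0.047).

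The sign changes were all of uncalled values near 0. Without TMM they were Socs7 for rested CD5hi against CD5lo (0.00164), Socs6 for rested against fresh CD5lo (-0.0794), Socs7 for Treg against fresh CD5hi (0.0514) and Socs1 for the interaction (0.00451). Under a filter of at least 1 CPM, Socs6 for rested against fresh CD5lo was -0.00152. With rested replicates 1 and 2 alone, Socs6 for rested against fresh CD5lo was -0.0517, Socs7 for rested against fresh CD5hi -0.0435 and Socs1 for the interaction 0.0639. With replicates 3 and 4 alone, Socs1 for rested CD5hi against CD5lo was -0.00834 and Socs6 for rested against fresh CD5hi 0.0132. With the 1 Treg library with Y-linked reads, Socs7 for Treg against fresh CD5lo was -0.0594. Leaving out 1 library gave -0.0886 to 0.0438 for Socs7 in Treg against fresh CD5hi, -0.119 to 0.00537 for Socs7 and -0.0152 to 0.0833 for Socs4 in rested CD5hi against CD5lo, -0.109 to 0.0648 for Socs1 in the interaction, -0.0335 to 0.0492 for Socs6 in rested against fresh CD5lo, and -0.00903 to 0.0267 for Socs6 in fresh CD5hi against CD5lo.

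Over all genes, calls rose with the block in fresh CD5hi against CD5lo (2806 against 1524), in rested (2372 against 1092) and in the interaction (354 against 60). They were 495 with the rested groups alone and 639 with rested replicates 3 and 4, and for the interaction 131 with DESeq2, 36 without fresh CD5hi replicate 2 and 39 without rested CD5hi replicate 1 or fresh CD5lo replicate 1 or 4. Dropping TMM moved the median of all genes in Treg against fresh CD5lo by 0.10.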
